A study of Mus musculus with 24 samples.

Results

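The renin-angiotensin system of the kidney and the peptidases of the proximal tubule brush border were followed through 7 genes: Ren1, Agt, Ace, Agtr1a, Mme, Enpep and Anpep. They were taken by symbol from a table of 28450 features, where each symbol matched 1 row. Their Ensembl gene IDs there are ENSMUSG00000070645 for Ren1, ENSMUSG00000031980 for Agt, ENSMUSG00000020681 for Ace, ENSMUSG00000049115 for Agtr1a, ENSMUSG00000027820 for Mme, ENSMUSG00000028024 for Enpep and ENSMUSG00000039062 for Anpep. All 7 passed the expression filter of at least 1 FPKM in at least 6 libraries, as did 13020 features in all. FPKM, the authors' deposited unit, scales the fragments of a transcript by its length and by all mapped fragments of the library, so levels can be set beside each other across genes.

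Kidney RNA was sequenced from C57BL/6 mice that were wild type or NLPR3-/-, the labels' spelling of a knockout of Nlrp3, which encodes an inflammasome sensor. Both genotypes received intraperitoneal injections of 200 µl each day from day 1 to day 7 and no further allele or agent is named. The injection held saline in the control groups and glyoxylate (Gly) at 75 mg/kg per day in the treated groups. Glyoxylate is converted to oxalate in the body, and it is used in mice as a model of calcium oxalate deposits in the kidney. Each of the 4 groups held 6 libraries: saline wild type, Gly wild type, saline knockout and Gly knockout. The labels used here give neither age nor sex and do not say which part of the gene was deleted.

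Renin, the product of Ren1, is an aspartic protease that juxtaglomerular cells release into the blood. It cuts angiotensinogen, the product of Agt, into angiotensin I. Angiotensin-converting enzyme, the product of Ace, turns that peptide into angiotensin II, which acts through the type 1a receptor encoded by Agtr1a. In the kidney, Ace and the other peptidases sit on the apical membrane of proximal tubule cells. Aminopeptidase A (Enpep) and aminopeptidase N (Anpep) shorten angiotensin II in turn to smaller peptides, and neprilysin (Mme) cuts angiotensin I to angiotensin 1-7 and degrades natriuretic peptides and kinins.

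Promoter sequences of the 3 genes that passed the test under Gly in both genotypes are printed because their transcripts moved in opposite directions, with Ace and Anpep lower and Agt higher. They come from RefSeq on the mouse build GRCm38.p6, run from 250 bases before to 50 bases after the annotated start, and are written in the direction of transcription. Capitals mark a TATA box (TATAAA, or TTTATA where it lies on the other strand) or a GC box (GGGCGGG, or CCCGCCC on the other strand). The windows are chr11:105967698-105967997 on the plus strand for Ace, chr7:79848161-79848460 on the minus strand for Anpep and chr8:124569657-124569956 on the minus strand for Agt.
Ace: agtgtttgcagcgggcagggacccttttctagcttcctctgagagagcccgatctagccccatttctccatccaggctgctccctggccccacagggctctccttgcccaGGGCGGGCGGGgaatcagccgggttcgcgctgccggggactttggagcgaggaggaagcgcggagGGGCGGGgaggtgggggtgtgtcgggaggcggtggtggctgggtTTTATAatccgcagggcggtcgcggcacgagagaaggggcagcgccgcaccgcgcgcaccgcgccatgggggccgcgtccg
Anpep: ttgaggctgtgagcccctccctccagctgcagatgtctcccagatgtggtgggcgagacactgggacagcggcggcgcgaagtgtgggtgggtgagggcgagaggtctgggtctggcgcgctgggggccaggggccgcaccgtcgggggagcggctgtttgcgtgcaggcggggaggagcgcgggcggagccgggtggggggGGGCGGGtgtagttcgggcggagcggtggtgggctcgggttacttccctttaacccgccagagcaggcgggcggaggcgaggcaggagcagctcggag
Agt: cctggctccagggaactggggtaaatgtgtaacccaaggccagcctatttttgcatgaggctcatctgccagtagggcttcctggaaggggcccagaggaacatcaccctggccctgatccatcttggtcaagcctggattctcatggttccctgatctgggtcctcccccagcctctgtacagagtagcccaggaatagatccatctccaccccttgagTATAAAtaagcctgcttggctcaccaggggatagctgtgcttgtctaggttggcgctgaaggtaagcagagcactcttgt

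The Ace and Anpep windows were rich in G and C, at 69.7% and 72.3%, with 29 and 28 CpG dinucleotides. The Agt window was at 54.7% with 1 CpG, close to the median of 52.7% over 32851 promoters. The Agt promoter held TATAAA with its first base 30 bases before the start. The Ace window held the same motif on the other strand 31 bases before its start, and GC boxes at 140, 136 and 75 bases before it, of which the first pair overlap. Anpep held 1 GC box, 48 bases before the start. Of all promoters in the set, 13.6% held a TATA box and 25.6% a GC box, so a match of either kind is common. RefSeq windows were found for 6 of the 7 genes, in 9 entries, with 2 starts for Ace and 3 for Mme. The Ren1 promoter also held TATAAA, 29 bases before its start. Enpep held this motif on the other strand, 52 bases and 1 base before its start, and each Mme window held a GC box. The Ace window of the other start, chr11:105974939-105975238, held none of the motifs. None of the 9 windows held 3 further motifs searched on both strands, the HNF1 half-site GTTAAT, the HNF4 site CAAAGTCCA and the cAMP response element core TGACGT, which 7.10%, 0.475% and 7.51% of all promoters hold. These matches describe the letters in each window and are not sites of binding.

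Some libraries stood apart before any gene was compared. In 5 of the 6 saline knockout libraries (1, 2, 3, 5 and 6) no gene of a Y-linked list (Ddx3y, Eif2s3y, Kdm5d, Uty) exceeded 0.0503 FPKM, whereas saline knockout library 4 had Ddx3y at 9.33 FPKM, within the 8.86 to 10.8 FPKM of saline wild type. Results for the 7 genes that include the saline knockout group are therefore given with and without those 5 libraries where a call was made. In the Gly wild-type group, ribosomal protein genes (symbols Rpl or Rps with a number) held 8.74% of all FPKM in library 1 and 5.64% in library 5, against 4.68% to 4.92% in the other 4 libraries. Mitochondrial genes (symbols starting with mt-) held 26.9% to 34.3% of all FPKM in saline wild type and 13.5% to 23.0% in Gly wild type, lowest in library 1. In knockout they held 28.6% to 32.7% under saline and 21.8% to 24.7% under Gly. A lower share of these genes leaves a higher share to all others, and its part in the differences below was not tested. Nlrp3 itself was between 0.119 and 0.144 FPKM in the Gly knockout libraries, below all Gly wild-type libraries at 0.361 to 0.896 FPKM. Under saline it was too low to tell the genotypes apart, at 0.0397 to 0.0886 FPKM in wild type and 0 to 0.182 FPKM in knockout. The sequencing depth behind these values is unknown.

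In saline wild-type kidney all 7 genes were well above the filter and within 1 order of magnitude of each other. Ace had the highest level, 57.8 ± 5.59 FPKM (SD, n = 6), which ranked 974 of 28450 features. Anpep followed at 36.7 ± 7.28 FPKM, then Ren1 at 34.0 ± 7.45, Agt at 31.0 ± 1.96, Enpep at 28.0 ± 3.17 and Mme at 26.4 ± 4.17 FPKM. Agtr1a was the lowest at 11.7 ± 1.06 FPKM, ranking 4339. The libraries of Ace did not overlap those of any other member in this group, nor did those of Agtr1a, whereas the 5 genes in between overlapped. The mouse genome has a close copy of Agtr1a, the gene Agtr1b, which was listed at no more than 0.105 FPKM in any library. Ren2, a near-identical copy of Ren1 that some mouse strains carry, had no row in the table.

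**Figure D1:**
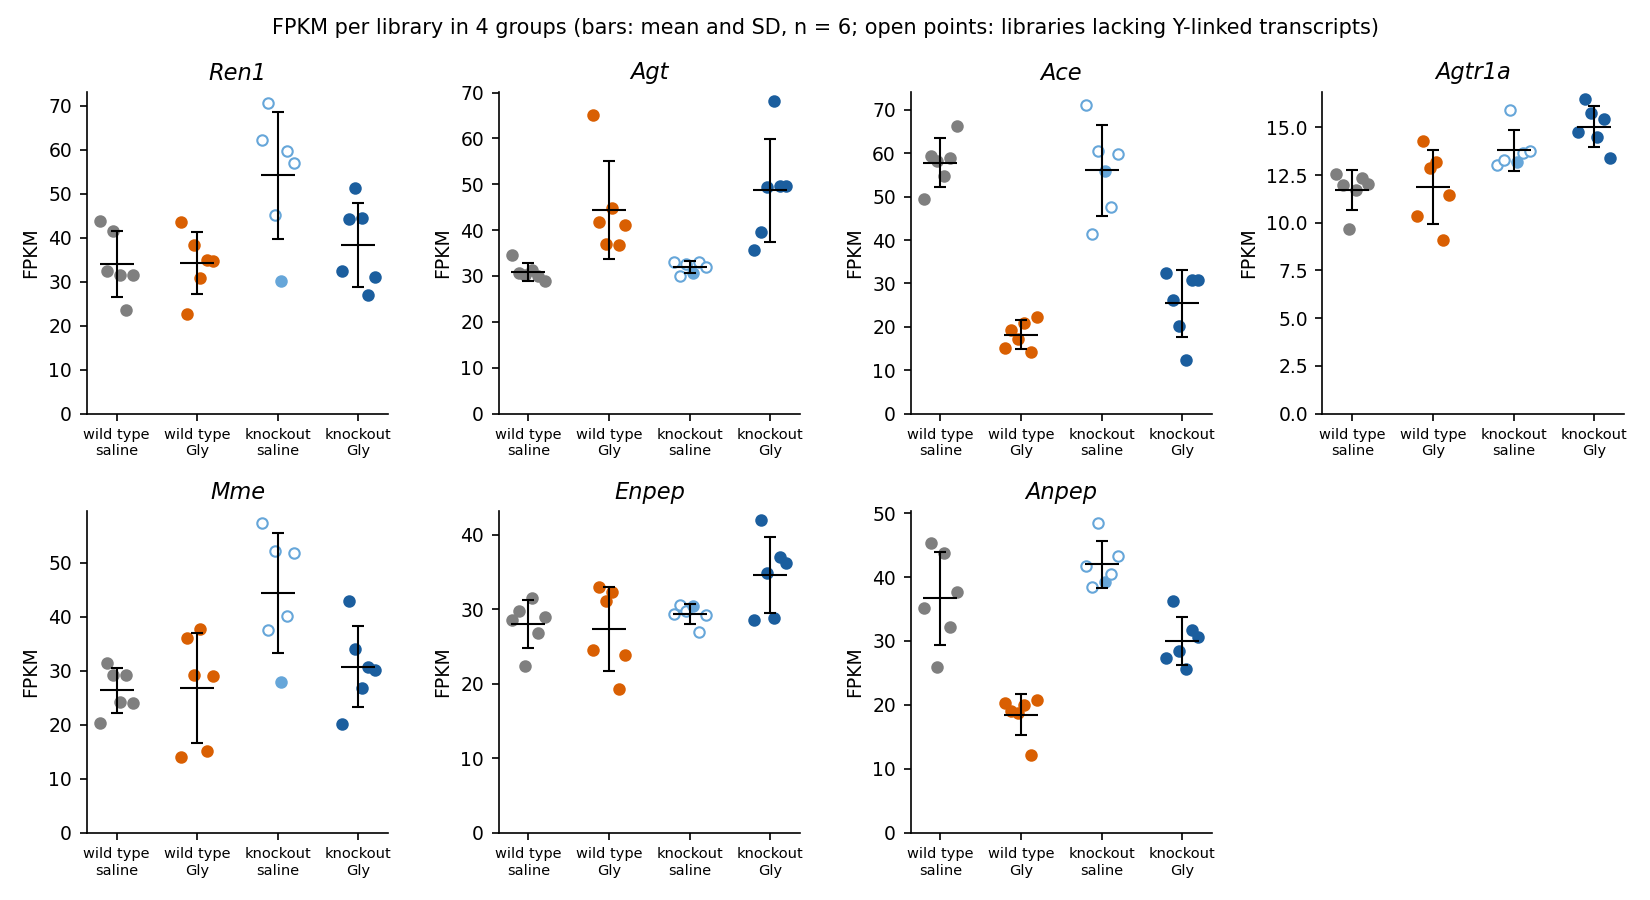
FPKM per library (vertical axis, linear, from 0) of the 7 genes in the 4 groups, with the mean and SD over 6 libraries; open points are saline knockout libraries without Y-linked transcripts. Ace falls from a mean of 57.8 to 18.2 FPKM in wild type, and the 2 saline groups of Agt lie below both Gly groups.

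Gly against saline in wild type asks how the treatment changes the system in mice with an intact Nlrp3 gene. The mean FPKM of the converting enzyme gene Ace fell by 68.6% and that of aminopeptidase N (Anpep) by 49.5%, and that of angiotensinogen (Agt) rose by 43.4%. The transcripts of renin, the angiotensin receptor, neprilysin and aminopeptidase A did not pass the test. Of the 7 genes 1 was called higher and 2 lower, where a call is a Benjamini-Hochberg adjusted p under 0.05 in limma over all tested features. Over those features 63.5% were called, 50.2% higher and 13.3% lower, so a call alone did not set a gene apart in this comparison. With median-ratio scaling, which brings the libraries to a common centre, the split over all features was 3723 higher and 3700 lower, beside 6537 and 1728 with FPKM as deposited. Among the members, 1 had groups that did not overlap and was higher, and 2 were lower, against 31.3% and 7.6% of features.

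Angiotensinogen, the substrate that starts the cascade, ranged in saline wild type from 28.9 FPKM over a median of 30.4 to 34.6. Under Gly it ranged from 36.7 over 41.4 to 65.1 FPKM. The groups did not overlap, and the highest Gly value was in library 1, well above the next at 44.8 FPKM. The difference in mean log2(FPKM + 1) was 0.48 ± 0.12 (SE; limma, adjusted p = 0.00165). Without Gly wild-type libraries 1 and 5 it was 0.40 (adjusted p = 0.00311). This rise did not hold when libraries were scaled to a common centre: with median-ratio scaling the difference was 0.17 (adjusted p = 0.253), and with quantile normalization 0.23 (adjusted p = 0.0558). Over all features the median difference was 0.26 with FPKM as deposited. Mitochondrial genes held less of all FPKM under Gly, least in Gly wild-type library 1 (13.5%), and their part in the values of Agt was not tested. Liver also makes angiotensinogen, and the liver markers Alb, Apoa2, Ttr, Serpina3k and Cps1 summed to 55.1 to 229.6 FPKM under saline and 27.3 to 68.2 under Gly, with 1 of 4 tested called lower and none higher. Their part in the values of Agt was not tested.

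Renin transcript covered nearly the same range in both wild-type groups. It ran from 23.4 over a median of 31.9 to 43.7 FPKM under saline and from 22.7 over 34.9 to 43.5 FPKM under Gly. The log2 difference was 0.01 ± 0.19 (limma, adjusted p = 0.971), with either scaling between -0.30 and -0.25 and not called.

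Ace, the enzyme that makes angiotensin II, showed the clearest separation of the members. Its libraries ran from 49.5 over a median of 58.5 to 66.4 FPKM under saline and from 14.1 over 18.3 to 22.3 FPKM under Gly. The lowest saline library was above the highest Gly library by more than 2 times, so the groups were far apart. The log2 difference was -1.63 ± 0.17 (limma, adjusted p = 1.84e-08), lower than in all but 0.760% of features tested. It was -1.94 with median-ratio scaling, -1.84 with quantile normalization, and -1.49 without Gly wild-type libraries 1 and 5.

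The receptor gene Agtr1a ran from 9.65 over 12.01 to 12.6 FPKM under saline and from 9.10 over 12.2 to 14.3 FPKM under Gly. The groups overlapped, with a log2 difference of 0.01 ± 0.09 (limma, adjusted p = 0.948). Its sign depended on the scaling: it was -0.29 (adjusted p = 0.00111) with median-ratio scaling and -0.28 (adjusted p = 0.00149) with quantile normalization. In FPKM as deposited its level was kept, beside the median rise of 0.26 in all features.

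Among the brush-border peptidases, Anpep ran from 25.9 over 36.4 to 45.3 FPKM under saline and from 12.2 over 19.5 to 20.8 FPKM under Gly. The groups did not overlap, and 5 of the 6 Gly libraries lay within 18.7 to 20.8 FPKM with library 5 below them. The log2 difference was -0.95 ± 0.12 (limma, adjusted p = 4.90e-07). Enpep, which makes angiotensin III, ran from 22.3 over 28.7 to 31.5 FPKM under saline and from 19.2 over 27.7 to 33.0 under Gly, with a log2 difference of -0.05 ± 0.11 (adjusted p = 0.715). With the other scalings Enpep was called lower, at -0.36 (adjusted p = 0.00175) and -0.30 (adjusted p = 0.0234). Mme ran from 20.3 over 26.7 to 31.4 FPKM under saline and spread wider under Gly, from 13.9 over 29.1 to 37.8 FPKM, with a difference of -0.06 ± 0.22 (adjusted p = 0.838). Its lowest Gly values, 13.9 and 15.1 FPKM, were in libraries 1 and 5, the same that had the high ribosomal share, and without them the difference was 0.32 (adjusted p = 0.123). The part of that share in the spread of Mme was not tested.

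Other genes of the same membrane fell in the same comparison. Of 7 tested of 8 listed brush-border peptidases outside the 7 genes, 4 were called lower and none higher, with a median log2 difference of -0.43 beside 0.26 for all features. Mep1b fell by 1.99 and Mep1a by 1.00, the subunits of meprin, a metalloprotease of the brush border. Ggt1, which starts the breakdown of extracellular glutathione, fell by 0.76, and the dipeptidase Dpep1 by 0.43. Folh1, Dpp4 and Xpnpep2 did not pass the test. With either other scaling 6 of the 7 were called lower, Dpp4 and Xpnpep2 included, with medians of -0.74 and -0.72. Of 12 proximal tubule markers, 9 were called lower with a median of -0.96 (12 with median-ratio scaling and 11 with quantile normalization), and their summed level went from 4769 to 5615 FPKM under saline to 2078 to 2949 FPKM under Gly. Ace and Anpep thus moved with markers of the cell type that carries them, and in bulk kidney RNA fewer cells of a type and less RNA per cell cannot be told apart. Macrophage markers rose in 6 of 6, from a sum of 28.5 to 49.5 FPKM under saline to 210.1 to 634.7 FPKM under Gly, and their part in the values of the 7 genes was not tested. Mme, Enpep and Agtr1a, which the proximal tubule also expresses, were not called with FPKM as deposited.

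Of 16 other renin-angiotensin genes listed, 9 were tested; Agtr1b, Agtr2, Cma1, Cpa3, Ctsg, Mas1 and Mrgprd were below the filter. In wild type, 5 rose under Gly and none fell, with a median of 0.31 beside 0.26 for all features. This direction did not hold with the other scalings: 1 was called higher and 3 lower with median-ratio scaling (median 0.00), and 3 higher and 2 lower with quantile normalization (median 0.01). The genes called lower, named here after their values were seen, were Nln and Agtrap with both scalings (-0.18 and -0.35 with median-ratio scaling) and Atp6ap2 with median-ratio scaling (-0.26). Thop1, a soluble endopeptidase that cuts angiotensin I to angiotensin 1-7, rose by 0.77 ± 0.08 (adjusted p = 2.46e-08), and by 0.49 and 0.44 with the 2 other scalings. Rnpep, aminopeptidase B, differed by 0.58, Prep, prolyl endopeptidase, by 0.34, and Ctsa, a lysosomal carboxypeptidase, by 0.31, but with median-ratio scaling none of these 3 was called, and with quantile normalization Prep was not. Among 5 tested genes of the juxtaglomerular apparatus, where renin is made, Ptger4, a prostaglandin E2 receptor, rose by 1.18 and Gja5, the gap junction protein connexin 40, by 0.32, the latter not called with either other scaling. In the mineralocorticoid pathway downstream of angiotensin II, Sgk1 fell by 0.87 and the sodium channel subunit Scnn1a by 0.43, and Hsd11b2, which shields the mineralocorticoid receptor from cortisol-like steroids, rose by 0.38 but was not called with either other scaling. With both of those Nr3c2, the mineralocorticoid receptor, was called lower, at -0.49 and -0.58. Without Gly wild-type libraries 1 and 5 the calls on Scnn1a (-0.25, adjusted p = 0.177) and Dpep1 (-0.36, adjusted p = 0.0793) were lost.

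**Figure D2:**
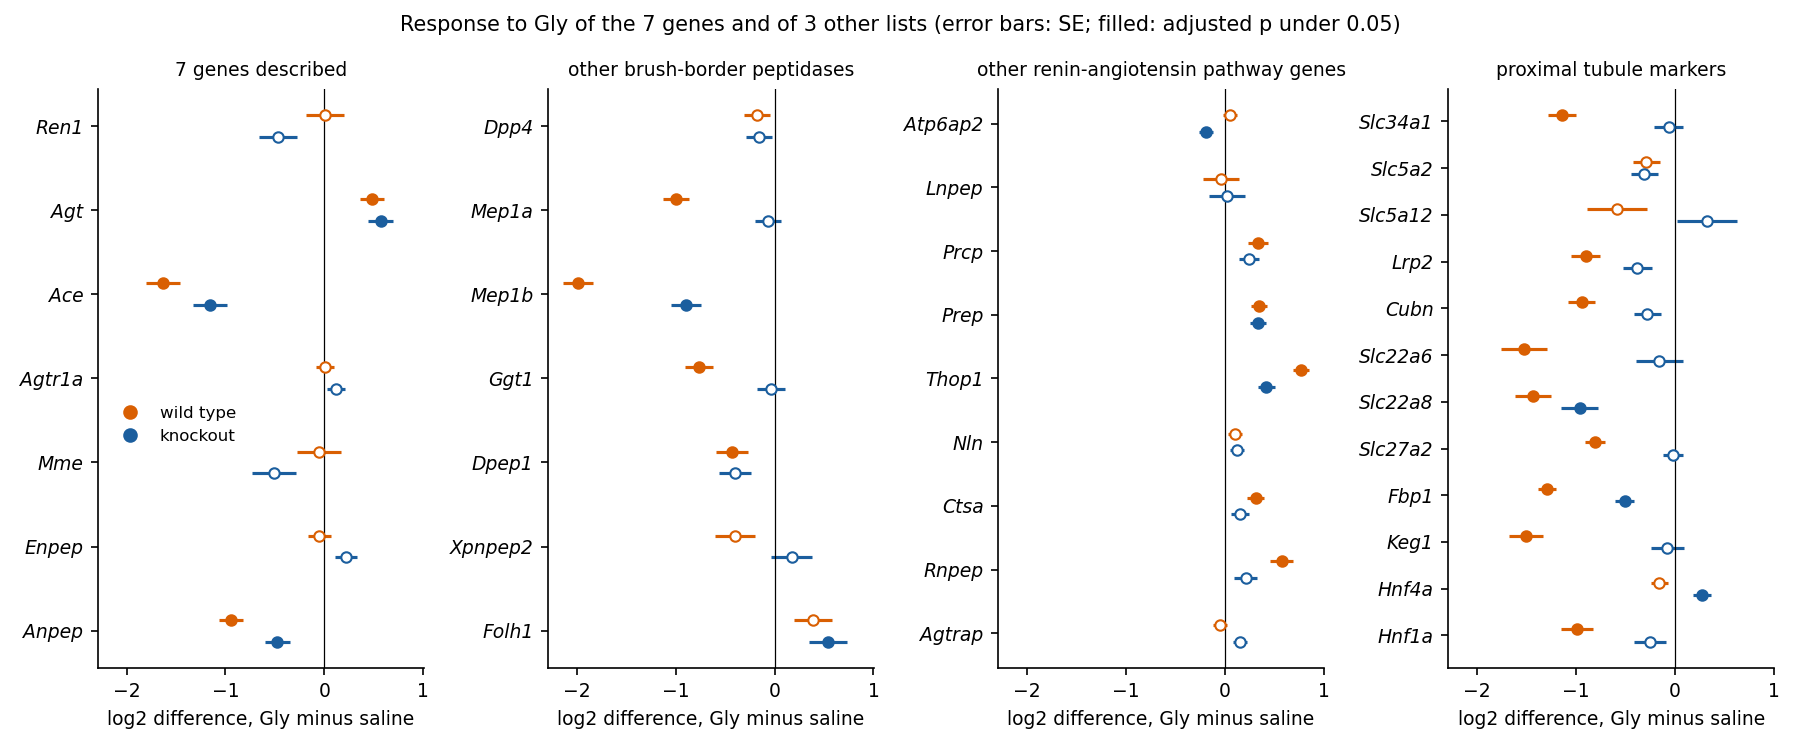
Log2 difference of FPKM + 1, Gly minus saline (horizontal axes), with SE for the 7 genes, 7 other brush-border peptidases, 9 other renin-angiotensin genes and 12 proximal tubule markers, in wild type (orange) and knockout (blue); filled points passed an adjusted p of 0.05. In wild type Ace (-1.63) lies between the meprin genes Mep1b (-1.99) and Mep1a, and Anpep (-0.95) near the median of the proximal tubule markers (-0.96), while the other renin-angiotensin genes lie between -0.05 and 0.77.

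Gly against saline in knockout asks the same of mice without Nlrp3. Mean FPKM of Ace fell by 54.7% and that of Anpep by 28.5%, and that of Agt rose by 52.8%, the same 3 genes as in wild type and in the same directions. Of the 7 genes 1 was called higher and 2 lower. Over all tested features 29.5% were called, 23.7% higher and 5.72% lower (3092 and 745, against 1584 and 1553 with median-ratio scaling). The groups of the same 3 genes did not overlap, as was so for 15.5% of features in the higher and 2.1% in the lower direction. For Ace, the saline knockout libraries ran from 41.3 over a median of 58.0 to 71.2 FPKM and the Gly knockout libraries from 12.4 over 28.4 to 32.4 FPKM. These did not overlap, and the lowest value, in Gly knockout library 4, was below every Gly wild-type library. The log2 difference of Ace was -1.16 ± 0.17 (limma, adjusted p = 1.99e-05).

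Agt ran from 30.0 over 32.3 to 33.1 FPKM in saline knockout and from 35.7 over 49.5 to 68.1 FPKM in Gly knockout. The saline values were tightly grouped and all below the Gly values, and the highest was in Gly knockout library 4, where Ace was lowest. The difference was 0.57 ± 0.12 (limma, adjusted p = 0.00122), and it was called with both other scalings, at 0.42 and 0.45. Anpep ran from 38.5 over 41.1 to 48.5 FPKM under saline and from 25.7 over 29.5 to 36.2 under Gly, without overlap. Its difference was -0.48 ± 0.12 (adjusted p = 0.00552).

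When the 5 saline knockout libraries without Y-linked transcripts were left out, 1 saline library remained, which is assumed to vary like the other groups. Ace was then at -1.18, Agt at 0.63 and Anpep at -0.38, each in the direction seen with all libraries. A group of 1 library cannot decide whether the 3 calls hold.

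Ren1 and Mme had lower means under Gly in knockout without passing the test. Ren1 ran from 30.1 over 58.3 to 70.7 FPKM under saline and from 26.8 over 38.3 to 51.2 FPKM under Gly, a log2 difference of -0.47 ± 0.19 (limma, adjusted p = 0.0658). Mme ran from 27.9 over 45.9 to 57.3 FPKM under saline and from 20.2 over 30.3 to 42.8 FPKM under Gly, a difference of -0.51 ± 0.22 (adjusted p = 0.0823). Both were called lower with median-ratio scaling, at -0.62 (adjusted p = 0.0241) and -0.66 (adjusted p = 0.0101), and with quantile normalization, at -0.60 and -0.64. Leaving out saline knockout library 4 also brought both past the test (-0.63 for each), as did leaving out Gly knockout library 3 for Ren1 (-0.56) and library 2 for Mme (-0.61). Without the 5 saline knockout libraries lacking Y-linked transcripts both differences changed sign, to 0.30 for Ren1 and 0.10 for Mme. Enpep, with a difference of 0.22 ± 0.11 (adjusted p = 0.160), and Agtr1a, with 0.12 ± 0.09 (adjusted p = 0.337), were not called.

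Of the 9 other renin-angiotensin genes tested, 2 rose under Gly in knockout and 1 fell. Thop1 rose by 0.42 and Prep by 0.34, and Atp6ap2, the prorenin receptor, fell by 0.19 (adjusted p = 0.0455). These 3 calls were kept with either other scaling. Without the 5 saline knockout libraries lacking Y-linked transcripts Thop1 was at 0.54, Prep at 0.32 and Atp6ap2 at 0.05. Of the 7 other brush-border peptidases, Mep1b fell by 0.89 and Folh1, glutamate carboxypeptidase II, rose by 0.54, and the remaining 5 were not called. With either other scaling Folh1 was not called and 3 were called lower, Mep1b, Dpep1 (-0.55 and -0.53) and Dpp4 (-0.30 with each). Without the 5 libraries Mep1b was at -1.17. Of the 12 proximal tubule markers, 2 were called lower and 1 higher, with a median of -0.20 and summed levels of 3744 to 5337 FPKM under saline and 3146 to 4357 under Gly. With median-ratio scaling 6 were called lower and none higher (median -0.35), and with quantile normalization 4 lower and none higher (median -0.26). Without the 5 libraries the median was -0.44. Ptger4 rose by 0.48 and Nr3c2 fell by 0.47, and without the 5 libraries they were at 0.72 and -0.07.

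**Figure D3:**
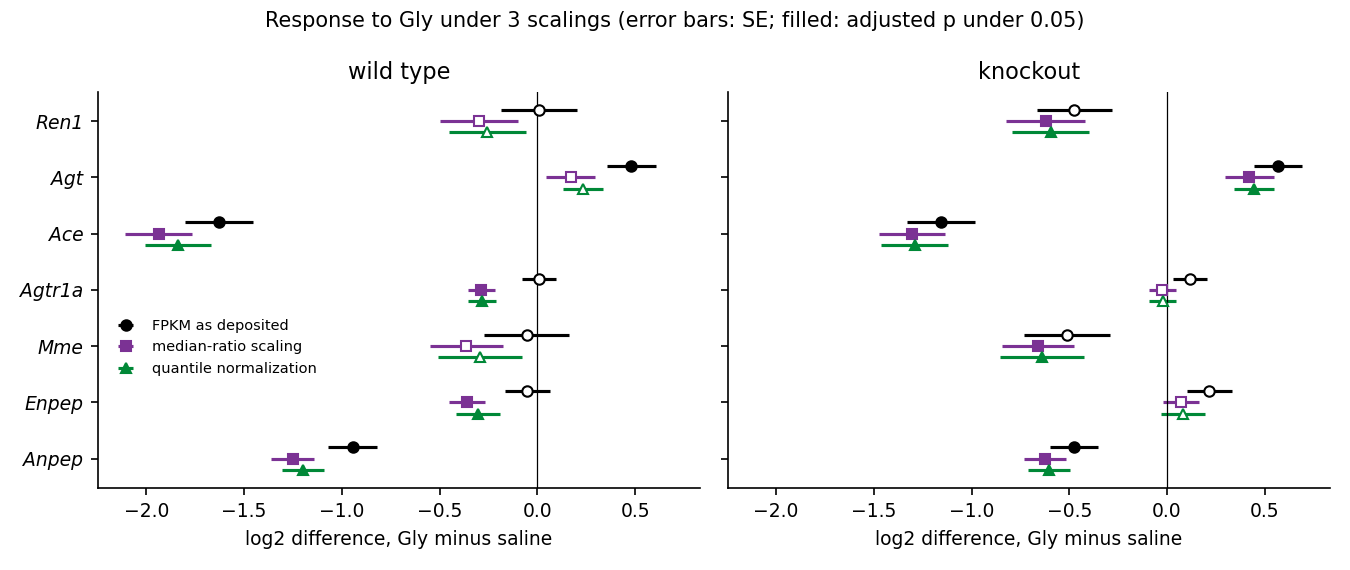
Log2 difference, Gly minus saline (horizontal axes), with SE for the 7 genes in wild type and knockout, with FPKM as deposited (circles), after median-ratio scaling (squares) and after quantile normalization (triangles); filled points passed an adjusted p of 0.05. Ace and Anpep stay below 0 and called in both genotypes, while the wild-type values of Agt and Agtr1a move by about the shift of all features, from 0.48 to 0.17 and from 0.01 to -0.29.

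Knockout against wild type under saline compares the genotypes without the treatment. Ren1 was 59.1% and Mme 68.5% higher in the mean of saline knockout than in saline wild type, and the other 5 genes were not called. That is 2 of 7 called higher and none lower, against 10.6% of all tested features called, 6.92% higher and 3.67% lower (901 and 478, against 641 and 747 with median-ratio scaling). The log2 difference of Ren1 was 0.63 ± 0.19 (limma, adjusted p = 0.0355) and that of Mme 0.71 ± 0.22 (adjusted p = 0.0399). These calls depended on single libraries: that of Ren1 was lost when any 1 of saline wild-type libraries 2, 4, 5 and 6 or saline knockout libraries 1, 2, 5 and 6 was left out, and that of Mme when any 1 of the 12 except saline wild-type library 2 and saline knockout library 4 was. Ren1 was also not called with median-ratio scaling (0.53, adjusted p = 0.0922), and neither gene with quantile normalization (adjusted p = 0.0532 and 0.0510). For both genes the groups overlapped, because saline knockout library 4 had 30.1 FPKM of Ren1 and 27.9 of Mme, inside the saline wild-type ranges. The other 5 saline knockout libraries, which lacked Y-linked transcripts, had Ren1 at 45.2 to 70.7 FPKM and Mme at 37.4 to 57.3, all above the saline wild-type libraries. With library 4 alone for saline knockout, the difference was -0.14 for Ren1 and 0.09 for Mme. A group of 1 library cannot decide a call, and the genotype and the Y-linked difference cannot be told apart. Female-biased kidney genes moved with the same 5 libraries: Slc7a12 was 115.8 to 185.7 FPKM in them and 8.94 in library 4, and 4 of 4 such genes were called higher in saline knockout. Male-biased genes were the reverse, with Slc7a13 at most 1.40 FPKM in them and 263.1 in library 4, and 5 of 5 called lower.

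Agtr1a did not overlap between the saline groups, with 13.04 to 15.9 FPKM in knockout and 9.65 to 12.6 in wild type, as was so for 3.94% of features in this direction. Its difference, 0.22 ± 0.09, did not pass the test (limma, adjusted p = 0.113). In this gene library 4 resembled the others of its group, at 13.2 FPKM, above the highest saline wild-type library. Agt, Ace, Enpep and Anpep differed by 0.04, -0.06, 0.07 and 0.21 (adjusted p = 0.873, 0.872, 0.748 and 0.308), and library 4 lay within the range of the other 5 for each. Among cell types that carry renin or its neighbours, 3 of 4 podocyte markers and 2 of 5 endothelial markers were called higher in saline knockout, and 0 of 5 vascular smooth muscle markers. Podocyte markers summed to 43.7 to 94.7 FPKM in saline knockout and 33.0 to 48.2 in saline wild type, and their part in the values of Ren1 was not tested. Npr1, a natriuretic peptide receptor on renin cells and vessels, was higher by 0.54, Hsd11b2 by 0.61 and Atp6ap2 by 0.29, the last not called with median-ratio scaling. Of the other brush-border peptidases, Folh1 was higher by 0.69 and Dpp4 by 0.57, and Mep1a was lower by 0.66 and Ggt1 by 0.59. Library 4 alone leaves 1 saline knockout library, too few to decide whether these calls hold.

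**Figure D4:**
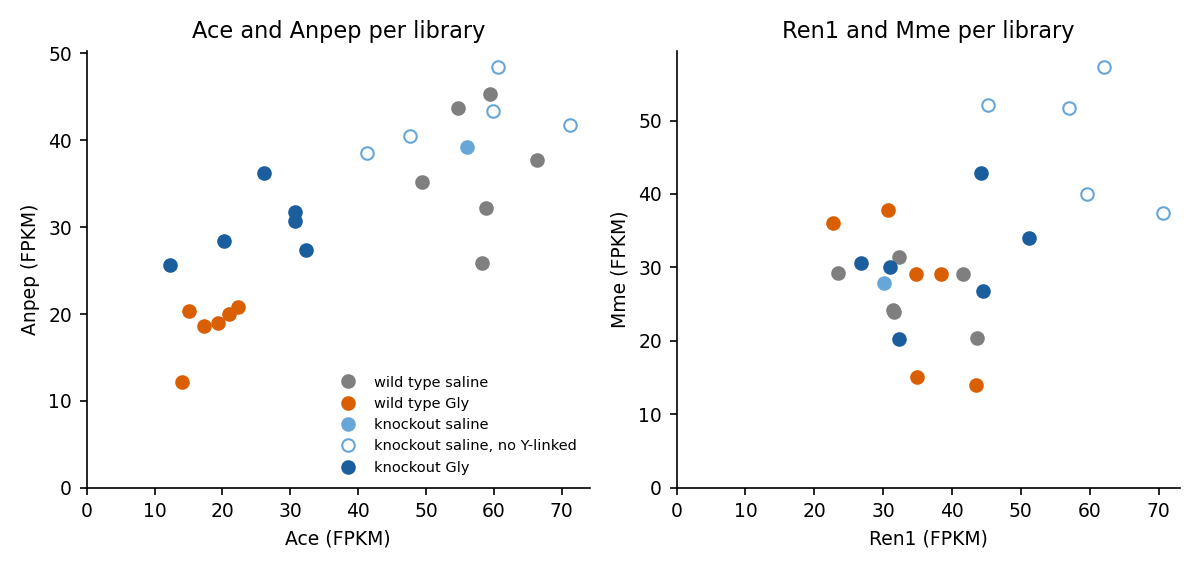
Left, FPKM of Ace (horizontal axis) against Anpep (vertical axis), and right, FPKM of Ren1 against Mme, with 1 point per library and the 4 groups in color; open points are saline knockout libraries without Y-linked transcripts. Saline libraries have at least 41.3 FPKM of Ace and Gly libraries at most 32.4, while Anpep overlaps between Gly knockout and saline wild type, and the 5 open points have Ren1 from 45.2 to 70.7 and Mme from 37.4 to 57.3 FPKM.

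Knockout against wild type under Gly compares the treated genotypes, and all 12 libraries expressed Y-linked genes. Anpep was 62.2% higher, Agtr1a 26.7% higher and Enpep 26.4% higher in Gly knockout than in Gly wild type, which is 3 of 7 genes higher and none lower. Over all features 29.8% were called, 8.37% higher and 21.4% lower (1090 and 2792, against 1697 and 1988 with median-ratio scaling). For Anpep, every Gly knockout library (25.7 to 36.2 FPKM) was above every Gly wild-type library (12.2 to 20.8), a separation that 2.4% of features showed in that direction and 6.3% in the lower one. Its log2 difference was 0.68 ± 0.12 (limma, adjusted p = 0.000298), and between 0.57 and 0.72 when any 1 library was left out.

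Agtr1a ran from 13.4 over 15.1 to 16.5 FPKM in Gly knockout, overlapping Gly wild type, which reached 14.3. The difference was 0.33 ± 0.09 (limma, adjusted p = 0.00642), and it was 0.20 (adjusted p = 0.0342) without Gly wild-type libraries 1 and 5, a smaller value by more than 1.5 times. Enpep ran from 28.5 over 35.6 to 41.98 FPKM in Gly knockout, with a difference of 0.34 ± 0.11 (adjusted p = 0.0270). That call was lost when only these 2 groups were fitted (adjusted p = 0.110), when Gly wild-type library 5 was left out (0.25, adjusted p = 0.0705) and when Gly wild-type library 6 or Gly knockout library 2 or 5 was. Without Gly wild-type libraries 1 and 5 it was 0.19 (adjusted p = 0.149). Ace was 0.41 ± 0.17 higher in the knockout mean without passing the test (adjusted p = 0.0742). It was called with median-ratio scaling (0.47, adjusted p = 0.0409), with quantile normalization (0.49, adjusted p = 0.0291) and without Gly knockout library 4 (0.60, adjusted p = 0.00278), so that leaving out 1 library decided it. Mme, Ren1 and Agt differed by 0.25, 0.15 and 0.13 (adjusted p = 0.415, 0.589 and 0.463).

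Other genes of the brush border were also higher in Gly knockout. Of 7 tested peptidases, 4 were called higher and none lower, with a median of 0.58: Xpnpep2, aminopeptidase P, by 0.85, Folh1 by 0.84, Mep1b by 0.66 and Dpp4 by 0.58. Of 12 proximal tubule markers, 9 were called higher with a median of 0.64, and their summed level was 3146 to 4357 FPKM in Gly knockout against 2078 to 2949 in Gly wild type, without overlap. The difference of Anpep was near the median of these markers, and their part in it was not tested. Of the 9 other renin-angiotensin genes only Thop1 was called, lower by 0.36 (adjusted p = 0.00217). Ptger4 was lower by 0.43, and the sodium channel subunit Scnn1a was higher by 0.73. Macrophage markers were called lower in 6 of 6, at 114.3 to 354.9 FPKM in sum against 210.1 to 634.7.

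**Figure D5:**
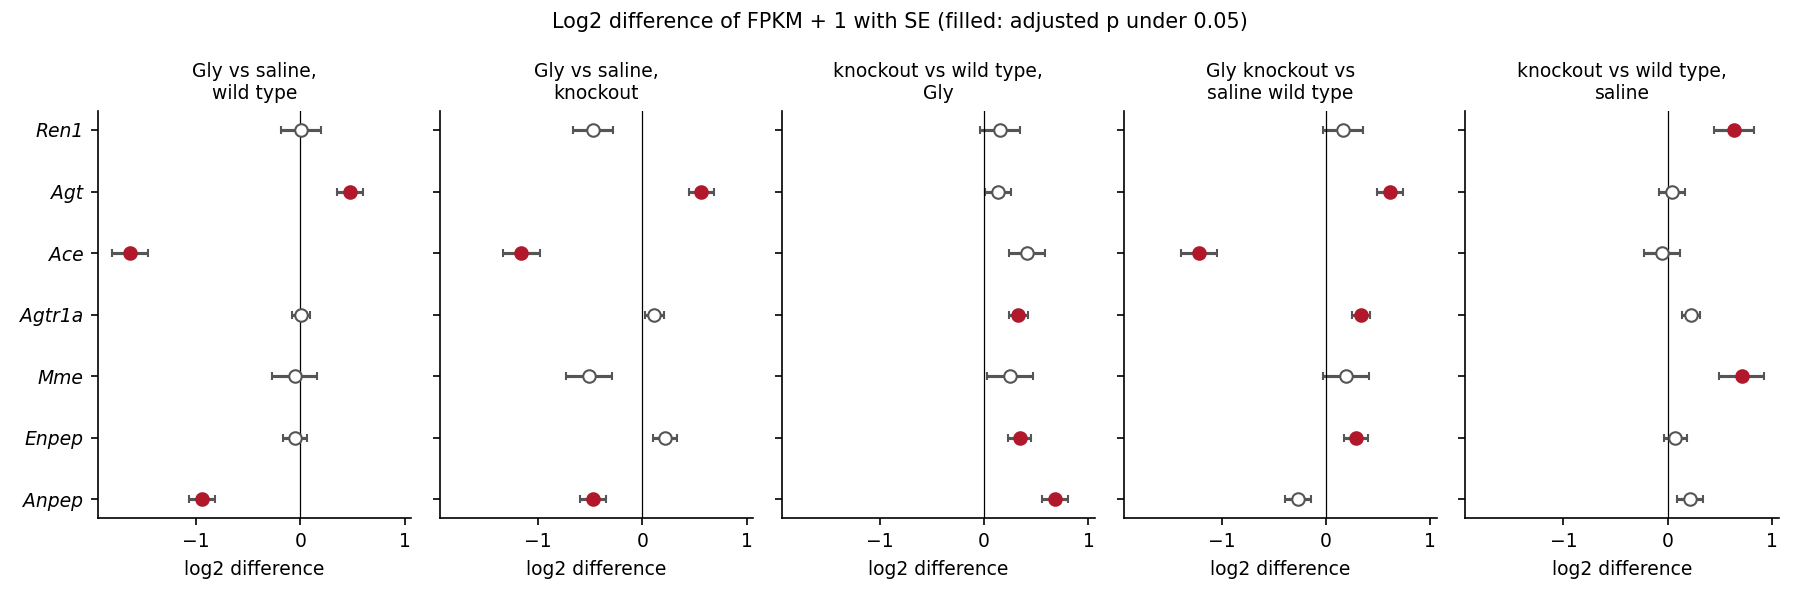
Log2 difference of FPKM + 1 (horizontal axes) with SE for the 7 genes in 5 comparisons; filled red points passed an adjusted p of 0.05. Ace and Agt are filled in all 3 comparisons of Gly with saline groups, Anpep, Agtr1a and Enpep in knockout against wild type under Gly, and Ren1 and Mme under saline.

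Gly knockout against saline wild type shows what differed from the normal state when Nlrp3 was missing, again with Y-linked genes expressed in all libraries. Ace stayed lower, Agt stayed higher, and Agtr1a and Enpep were also higher, which made 3 of 7 called higher and 1 lower. Over all features 45.6% were called, 38.9% higher and 6.72% lower (5068 and 875, against 2112 and 2188 with median-ratio scaling). The differences were -1.22 ± 0.17 for Ace (limma, adjusted p = 6.26e-06), 0.61 ± 0.12 for Agt (adjusted p = 0.000371), 0.34 ± 0.09 for Agtr1a (adjusted p = 0.00326) and 0.29 ± 0.11 for Enpep (adjusted p = 0.0416). Ace, lower, and Agt and Agtr1a, higher, did not overlap between the groups, as was so for 3.33% and 28% of features. The call on Enpep was lost in 8 of 12 leave-outs of 1 library. Agtr1a and Enpep lost their calls with the other scalings, at 0.10 and 0.04 with median-ratio scaling, beside a median of 0.20 over all features with FPKM as deposited. Anpep, at -0.27 ± 0.12, was not called (adjusted p = 0.0839) but was with median-ratio scaling (-0.51) and quantile normalization (-0.42). This comparison shares its saline libraries with the wild-type Gly comparison and its Gly libraries with the knockout ones, so its values are not independent of theirs. Thop1 was higher by 0.41 and Prep by 0.36. Thop1 was called with neither other scaling (0.19 and 0.17), and Prep not with quantile normalization (0.08). In these settings 1 of the 9 other renin-angiotensin genes was called lower with median-ratio scaling (Agtrap) and 2 with quantile normalization (Nln and Agtrap). Folh1 was higher by 1.23, and Mep1b, Mep1a and Ggt1 were lower by 1.33, 0.72 and 0.63. Of 5 tested juxtaglomerular genes 3 were called higher and none lower, and of 6 mineralocorticoid pathway genes 2 higher and none lower. With median-ratio scaling these were 2 higher and none lower, and none higher and 1 lower.

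The interaction, which is the response to Gly in knockout minus that in wild type, was called for none of the 7 genes in limma, against 26.6% of all features, 6.28% higher and 20.3% lower. At an unadjusted p under 0.05 there was 1 gene, Anpep, with a difference of 0.47 ± 0.18 (limma, adjusted p = 0.0501). Its fall under Gly was smaller in knockout by that amount, and it was called with median-ratio scaling (0.63, adjusted p = 0.00474) and quantile normalization (0.59, adjusted p = 0.00619), and in 6 of 24 leave-outs of 1 library. Ace had a like value, 0.47 ± 0.25 (adjusted p = 0.159), Ren1 -0.48 ± 0.27 (adjusted p = 0.196) and Mme -0.46 ± 0.31 (adjusted p = 0.291). In 1 of 24 leave-outs Ace was called, without Gly knockout library 4 (0.66, limma, adjusted p = 0.0144). Ren1 was also called in 1, without saline knockout library 4 (-0.64, limma, adjusted p = 0.0493). Among the other brush-border peptidases, Mep1b (1.09), Mep1a (0.93) and Ggt1 (0.73) were called, each with a less negative response in knockout. Mep1a and Ggt1 were already lower in saline knockout than in saline wild type, and neither was called between the Gly groups. With median-ratio scaling their genotype differences were -0.76 and -0.69 under saline, both called, and 0.33 and 0.20 under Gly, not called. Thop1 (-0.35), Ptger4 (-0.69) and Hsd11b2 (-0.52) were called in the other direction, of which Thop1 and Hsd11b2 were not called with either other scaling. Leaving out the 5 saline knockout libraries lacking Y-linked transcripts leaves 1 saline knockout library, too few to decide any of these calls. The median interaction was then 0.22 over the 7 genes and 0.43 over the 7 other brush-border peptidases tested. With all libraries these medians were 0.11 and 0.57.

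The 7 genes did not move as 1 block across the 24 libraries. Pearson's r of log2(FPKM + 1), given as a description, was 0.82 for Ace with Anpep and -0.79 for Ace with Agt. After the group means were taken out these became 0.38 and -0.49. Agtr1a and Enpep, by contrast, had r = 0.81 over all libraries and 0.76 within groups, and Anpep with Enpep went from 0.40 to 0.71. Over all libraries Ren1 had no r above 0.37 with any other member.

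Genes with the most similar profile differed by member, among 7833 features averaging at least 5 FPKM. The libraries share group differences, so such r values over 24 libraries describe these samples only. For Ace they were Mep1b (r = 0.96, and 0.80 within groups), Ghr, the growth hormone receptor (0.95 and 0.76), and Oxct1, an enzyme of ketone body use (0.94 and 0.58). For Anpep they included Acy1, aminoacylase 1 (0.94 and 0.73), and Atp5a1, an ATP synthase subunit (0.94 and 0.66). For Enpep they were the transporter Slc16a12 (0.90 and 0.91), Sufu (0.84 and 0.84) and Agtr1a. For Agtr1a they were Gzf1 (0.83 and 0.67), the lactate transporter Slc5a12 (0.81 and 0.73) and Enpep. For Mme they were Tmx4 (0.93 and 0.91), Aplp2 (0.92 and 0.90) and Tbc1d14 (0.91 and 0.87). For Agt they were Trmt1 (0.95 and 0.91), Igbp1 (0.94 and 0.87) and Zfp358 (0.92 and 0.90). For Ren1 they were Cbr1, carbonyl reductase 1 (0.78 and 0.70), Gsta4, a glutathione transferase (0.78 and 0.72), and Spc25 (0.77 and 0.63). Cbr1 had means of 26.9 FPKM in saline wild type and 253.7 in saline knockout, where 5 libraries lacked Y-linked transcripts and 1 had them. Taking out group means does not remove that split. Across it Ren1 was at 30.1 FPKM against 45.2 to 70.7, and Mme at 27.9 against 37.4 to 57.3. Its part in the r values within groups was not tested.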

How the data were processed

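RNA from 24 mouse kidneys, 6 in each of 4 groups given by the sample titles, was extracted with Trizol and made into TruSeq RNA libraries, per the labels. The values are FPKM as deposited by the authors in 1 table. The submitters' processing notes name Bowtie 0.12.2, mm8 and mm9 without a role. Which program made the FPKM, with which annotation and strand setting, is not given in the sources used here. Values of genes with near copies can therefore be uncertain. FPKM sums of 439749 to 539018 per library are not a depth, so the depth is unknown and no counting interval is given. No pair of libraries was identical (r across features 0.945 to 0.996).

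The filter kept features that reached 1 FPKM in 6 or more libraries (13020 of 28450), which were tested with limma 3.58.1 (intensity trend, R 4.3.3) on log2(FPKM + 1), with all 24 libraries in 1 fit of 4 group means. Tests are two-sided. A feature is called where its p, adjusted by Benjamini-Hochberg over all tested features, is under 0.05. Differences on this scale understate the change of weakly expressed genes. P-values set each difference against the spread between libraries within groups, pooled over all 4 groups, saline knockout included. The fit was run on simulated data, with independent normal values around the saline wild-type means and known changes added in Gly wild type. That setting holds neither unequal libraries nor the split within saline knockout, so it cannot speak to them. Alternatives were a pseudocount of 0.1, no filter, median-ratio scaling, quantile normalization, a fit of only the groups compared, array weights, a replicate block, leaving out each library and leaving out the saline knockout libraries lacking Y-linked transcripts. One more, without Gly wild-type libraries 1 and 5, was added after the data were seen. No member was below the filter, so no permutation test was needed.

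The 7 genes, the lists and the markers were chosen with earlier results of these data known. Of the other lists, genes that passed the test in a comparison are named, up to 4 per list by smallest p. For Gly knockout against saline wild type the juxtaglomerular and mineralocorticoid lists are given as counts only. Some genes that these rules would name are not reported here, and 1 was left out of its list. Similar genes are the 3 with the highest r over 24 libraries among features averaging at least 5 FPKM, without predicted genes or added gene models. Promoters came from RefSeq (GRCm38.p6), matched by symbol.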

Additional observations from a re-analysis of the deposited data

Results flagged for a closer look

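In the 28 sets of 6 libraries formed by the 7 genes and 4 groups, 4 had an extreme library whose gap to its neighbour, as a share of the group's range, was above Dixon's critical value of 0.625. Chance gives about 1 in 20 such sets. The highest Agt value of Gly wild type was 65.1 FPKM in library 1 (gap 0.716 of the range), the library with the largest share of ribosomal protein transcripts. The lowest Anpep value of Gly wild type was 12.2 FPKM in library 5 (0.752). Agtr1a was lowest in saline wild-type library 3, at 9.65 FPKM (0.707), and highest in saline knockout library 3, at 15.9 FPKM (0.751).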

How the results depend on the processing

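Of the 7 genes, the calls on Ace and Anpep in both Gly comparisons held under every alternative that can decide them. Leaving out the 5 saline knockout libraries lacking Y-linked transcripts leaves 1 saline knockout library, too few to decide the knockout calls. Agt in wild type was not called with either other scaling. Agtr1a under Gly in wild type changed sign, to -0.29 with median-ratio scaling and -0.28 with quantile normalization, and Ren1 under saline changed sign without those 5 libraries, to -0.14. The number of genes called for Gly in knockout went from 3 to 5 with median-ratio scaling and with quantile normalization and 6 with array weights. It was 3 to 5 when 1 library was left out. For knockout against wild type under saline it went from 2 to 0 without a filter, 1 with median-ratio scaling and 0 with quantile normalization. It was 0 to 2 when 1 library was left out. For the interaction it went from 0 to 1 with a pseudocount of 0.1, 2 with median-ratio scaling, 1 with quantile normalization and 3 with array weights. It was 1 without Gly wild-type libraries 1 and 5, and 0 to 2 when 1 library was left out. The calls with the 2 scalings were in the higher direction, and that without Gly wild-type libraries 1 and 5 was lower. Where these counts changed, the cause was not tested. Counts without the 5 libraries are not given for the 7 genes, because 1 saline knockout library is left.

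Over all features, calls for knockout against wild type under saline went from 1379 to 2746 when only those groups were fitted, 5560 with array weights, 2660 without Gly wild-type libraries 1 and 5, and 0 without the 5 saline knockout libraries (101 at an unadjusted p under 0.05). When saline knockout library 1, 2, 4 or 6 was left out they were 817, 843, 2116 and 832. Calls for knockout against wild type under Gly went from 3882 to 2168 when only those groups were fitted. Calls for Gly in knockout went from 3837 to 6058 with array weights and 741 without the 5 libraries. Calls for the interaction went from 3457 to 6896 with array weights, 5719 without Gly wild-type libraries 1 and 5, and 10 without the 5 saline knockout libraries.

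Replicate numbers did not pair the libraries: same-numbered libraries of different groups had correlated deviations (r above 0.1) in 7 of 36 pairs, with r from -0.37 to 0.30, and 4 pairs were best with their own number. A replicate block changed no call on the 7 genes (3 for Gly in wild type, 3 in knockout, 2 under saline, 3 under Gly, 4 for Gly knockout against saline wild type and 0 for the interaction). The depth is unknown, so what it limits cannot be given.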
